A study of Homo sapiens with 3 samples.

Results

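The 52 genes described here encode the ligands, receptors and beta-catenin machinery of the Wnt pathway, chosen by gene symbol from a fixed list of Wnt ligands, Frizzled and LRP receptors, destruction complex subunits, TCF factors and inhibitors. All 52 had a row in the data, out of 27024 counted genes. RNA-seq was analysed from 3 libraries of 22Rv1 WT cells, an established human prostate carcinoma line cultured in RPMI1640 with FBS and given no treatment that the labels name. The study set WT cells, in which an enhancer on chromosome 12 is intact, beside cells in which CRISPR-Cas9 had deleted or edited it, and those other cells were not analysed here, so the question answered is which Wnt genes WT cells express and how evenly. The WT samples are control clones in the study's methods and biological replicates in its results, so the SD and p-values measure only the spread between these 3 libraries, which may be that of clones or of cultures. The deposited values are normalized counts, that is, reads per gene divided by 1 size factor per library, and the recovered depth was 38252744, 35675670 and 38629080 reads in replicates 1, 2 and 3.

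Wnt proteins are secreted lipid-modified ligands that bind Frizzled receptors and LRP co-receptors. Without ligand, a destruction complex built on APC and Axin phosphorylates beta-catenin and marks it for degradation. With ligand, Dishevelled recruits Axin to the membrane, beta-catenin accumulates, and in the nucleus it joins TCF/LEF factors on target genes, some of which feed back on the pathway. Much of this control acts on protein, which RNA-seq does not measure. In the prostate the pathway takes part in budding of the epithelium and has been studied in castration-resistant disease.

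A gene was called expressed when it reached 1 CPM (counts scaled by library size, here 35.7 to 38.6 reads) in all 3 libraries. By this rule 34 of the 52 Wnt genes (65.4%) were expressed, beside 47.7% of all counted genes and 63.8% of protein-coding genes. All 3 DVL genes, all 6 genes of the destruction complex group, which includes its target CTNNB1, and all 4 TCF/LEF factors were expressed. The products of these groups act inside the cell. At the membrane, all 4 LGR and E3 ligase genes and 8 of 10 FZD receptors were expressed. Ligands stood at the other end, with 4 of 16 expressed. Among the 18 genes that were not expressed, WNT7A, FZD10 and ROR2 had 0 reads in every library, WNT6, WNT11 and SFRP1 had reads in only 1 or 2 libraries, and 12 had reads in all 3 but fell under 1 CPM in at least 1. A count of 0 allows up to 3 reads, which is 0.0784, 0.0840 and 0.0778 CPM in replicates 1, 2 and 3, and covers counting error only. In a bulk sample, fewer expressing cells and less RNA per cell cannot be told apart.

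Levels of different genes are compared only per kilobase of canonical transcript. The 34 expressed Wnt genes had a median of 158 normalized counts per kilobase, and the 12205 expressed protein-coding genes had a median of 332. The plot of levels by group shows the range, from CTNNB1 at 3736 ± 83.4 (SD, n = 3) to WNT2B at 8.53 ± 0.336 among expressed genes. All 6 of 6 markers of prostate and other epithelium read here (KLK2, KLK3, HOXB13, EPCAM, KRT8 and KRT18) were expressed, beside 63.8% of protein-coding genes. Per kilobase they ranged from KLK3, above 40.1% of expressed coding genes, to KRT8, above 99.0%. Of 6 markers of fibroblasts, endothelium and leukocytes, 5 had a row and 1 was expressed, the collagen gene COL1A1 at 261 ± 17.2 normalized counts (SD, n = 3). The fibroblast gene COL3A1 had 44, 26 and 57 reads in replicates 1, 2 and 3 and missed 1 CPM in replicate 2 only. PDGFRB had 19, 10 and 15 reads. The endothelial cadherin CDH5 was at 0 in all libraries and the leukocyte gene PTPRC had at most 1 read in a library. The 5 markers summed to between 274.2 and 328.7 normalized counts per library.

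WNT10B led the ligands. This gene, whose product signals through beta-catenin in several epithelia, had 967, 848 and 909 normalized counts in replicates 1, 2 and 3. Per kilobase it reached 404 ± 26.5 (SD, n = 3), above 56.2% of the expressed coding genes. It held 73.0% ± 1.21 (SD, n = 3) of the summed per-kilobase level of the 16 ligands. Among these 16, WNT9A, known from joint formation, came next with 282, 254 and 220 normalized counts, or 11.3% ± 1.11 of the summed level. WNT8B, a ligand outside the 16 and not in this sum, averaged 77.1 normalized counts per kilobase, above the 62.9 of WNT9A. WNT10B exceeded WNT9A by 6.48 ± 0.780 times per kilobase, a pair compared after the levels were known. WNT7B, a ligand of lung and kidney epithelium, had 139, 122 and 135 normalized counts, and WNT2B had 92.4, 93.1 and 99.2. WNT2B shares 21.5% of its exon bases with ST7L on the opposite strand, so reads of the pair could not be told apart without strand. The 3 libraries of WNT10B, WNT9A and WNT7B did not overlap with each other in normalized counts per kilobase, so their order was the same in every library.

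Below WNT10B, WNT9A and WNT7B the order was not resolved. From WNT3 down to WNT1, each ligand overlapped its neighbour in the order of per-kilobase levels. WNT3 averaged 12.1 ± 3.44 normalized counts per kilobase (SD, n = 3). It lay above the expressed WNT2B, at 8.53 ± 0.336, in the mean only. WNT3, a ligand of the gut stem cell niche, had 49.8, 42.3 and 27.6 normalized counts and missed 1 CPM only in replicate 3. WNT5A, best known for signalling without beta-catenin, had 44.2, 22.0 and 26.8 and crossed 1 CPM in replicate 1 only. Other ligands that had reads in all libraries did not reach 1 CPM in any library: WNT2 averaged 19.4 ± 4.53 normalized counts (SD, n = 3), WNT10A 16.9 ± 6.03 and WNT4 14.1 ± 4.90. WNT3A, the ligand most used to activate the pathway in culture, had 4.7, 11 and 3.1 normalized counts. With so few reads these values could not be ordered at this depth.

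Several ligand genes are neighbours in the genome, in pairs known from other vertebrates. Pairs were sought only among genes of the fixed list, within 100 kb. On chromosome 12 (GRCh37), WNT10B lies on the minus strand at chr12:49359123-49365518 and WNT1 on the plus strand at chr12:49372105-49376403, 6.59 kb apart. WNT10B averaged 404 normalized counts per kilobase, while WNT1 had 1, 1 and 4 reads in replicates 1, 2 and 3. On chromosome 1, WNT9A (minus strand, chr1:228106357-228135633) and WNT3A (plus strand, chr1:228194699-228248972) are 59.1 kb apart. WNT9A had 70.4, 63.4 and 54.8 normalized counts per kilobase and WNT3A 1.57, 3.67 and 1.03, so no library of the pair overlapped. On chromosome 2, WNT6 (chr2:219724528-219738955) and WNT10A (chr2:219745574-219764303) share the plus strand and are 6.62 kb apart. Neither was expressed, with WNT10A at 8.22 ± 2.94 normalized counts per kilobase (SD, n = 3) and WNT6 at 4, 0 and 1 reads. A further pair includes a ligand outside the fixed list. On chromosome 17, WNT9B (plus strand, chr17:44910567-44964096) begins just past WNT3 (minus strand, chr17:44839872-44910520). WNT3 had 63, 50 and 35 reads in replicates 1, 2 and 3, and WNT9B had 2, 0 and 0.

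The 250 bases before the starts of WNT9A and WNT3A are shown because the expressed gene and the gene under 1 CPM of this pair both begin in CpG-rich sequence. They are reference sequence from RefSeq (promoter table on GRCh38.p14), placed on GRCh37 by an exact match at chr1:228135634-228135883 on the minus strand and chr1:228194449-228194698 on the plus strand, and not the sequence of these cells. Each is written 5′ to 3′ with every CG in capitals, 44 in WNT9A and 38 in WNT3A.
WNT9A: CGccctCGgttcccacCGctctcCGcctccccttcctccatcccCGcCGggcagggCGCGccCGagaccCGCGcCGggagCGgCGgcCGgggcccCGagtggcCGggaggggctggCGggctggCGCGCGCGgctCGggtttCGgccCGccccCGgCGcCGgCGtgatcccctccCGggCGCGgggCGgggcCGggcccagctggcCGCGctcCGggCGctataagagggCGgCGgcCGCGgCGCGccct
WNT3A: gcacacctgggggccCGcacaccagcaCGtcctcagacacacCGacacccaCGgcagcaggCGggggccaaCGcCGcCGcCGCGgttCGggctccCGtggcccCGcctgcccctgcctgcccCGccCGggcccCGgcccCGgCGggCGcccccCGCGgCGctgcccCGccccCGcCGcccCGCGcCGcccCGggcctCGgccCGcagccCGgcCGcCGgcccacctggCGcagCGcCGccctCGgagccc

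Over all members, 38 of 52 had a RefSeq promoter entry, covering 250 bases before to 50 bases after the start. WNT7B, WNT10B, WNT11, FZD2, FZD3, FZD6, FZD7, FZD10, LRP6, AXIN2, LGR5, ZNRF3, SFRP1 and NKD1 had none. The ratio of observed to expected CG pairs, which corrects the CG count for the content of C and G, had a median of 0.866 in 25 expressed Wnt genes (0.25 to 1.14). In the 13 Wnt genes that were not expressed the median was 0.871 (0.50 to 1.12). The median over 10003 expressed coding genes was 0.845, with quartiles of 0.706 and 0.954, and that over 5091 coding genes that were not expressed was 0.344, with quartiles of 0.170 and 0.712. As a description, 10 of the 13 Wnt genes that were not expressed lay above the upper quartile of 0.712, including WNT1 at 0.766 and WNT3A at 0.934.

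Both genes of ligand processing were expressed. WLS, which carries Wnt proteins to the cell surface, had 408.5, 395 and 428 normalized counts. PORCN, the acyltransferase that adds the lipid, had 80.6, 104 and 103. Per kilobase WLS exceeded PORCN by 2.98 ± 0.451 times (SD, n = 3).

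FZD6 and FZD5 were the highest of the Frizzled receptors, the proteins that bind Wnt at the membrane. FZD6, tied to hair follicle polarity and to signalling without beta-catenin, had 2465, 2296 and 2367 normalized counts and held 30.8% ± 0.522 (SD, n = 3) of the summed per-kilobase level of the 10 receptors. FZD5 had 3460, 3531 and 3245 normalized counts, or 23.4% ± 1.16 of that sum. Which of the pair leads depends on length, since FZD5 was higher before division by transcript length. FZD1 had 2524, 2531 and 2482 normalized counts (17.6% ± 0.378) and FZD8 had 1108, 996 and 1088 (12.7% ± 0.522). These receptors bind ligands of the beta-catenin branch, and FZD3, FZD9, FZD4 and FZD7 each held between 2.16% and 4.72%. The order from FZD6 to FZD8 and on to FZD3 was the same in every library, while FZD3 and FZD9 overlapped per kilobase. FZD4 shares 18.9% of its exon bases with PRSS23 on the opposite strand. The strandedness of the counting is not given in the sources used here, so how reads in the shared bases were assigned or set aside is not known.

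FZD2 stood apart among the receptors in its spread. It had 92, 32 and 36 reads in replicates 1, 2 and 3, or 72.7, 27.1 and 28.3 normalized counts, a ratio of 2.68 between the highest and the lowest library. Replicate 1 was high and the other replicates were alike, and the mean was 42.7 normalized counts with replicate 1 and 27.7 without it. FZD10 had 0 reads throughout.

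LRP5 and LRP6, the co-receptors that are phosphorylated when Wnt binds, were both expressed. LRP5 had 2796, 2579 and 2563 normalized counts and LRP6 had 2412, 2667 and 2262. Per kilobase LRP5 exceeded LRP6 by 2.15 ± 0.207 times (SD, n = 3). ROR1 and ROR2, receptor tyrosine kinases that bind WNT5A, were not expressed: ROR1 had 19.0, 27.1 and 24.4 normalized counts and ROR2 had 0 reads.

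The 3 Dishevelled genes, which relay the signal from Frizzled to Axin, were all high. DVL1 had 4946, 4733 and 4996 normalized counts, above 86.5% of expressed coding genes per kilobase. DVL3 had 4906, 4960 and 4984, and DVL2 had 2884, 2691 and 2704. DVL1 held 44.3% ± 0.624 (SD, n = 3) of the per-kilobase sum, and DVL3 and DVL2 overlapped at 28.1% and 27.6%. Without division by length the order of DVL1 and DVL3 was not resolved, since their normalized counts overlapped and DVL3 was the higher in replicate 2 only.

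CTNNB1, the gene of beta-catenin (chr3:41236232-41301587, plus strand), had 13869, 13324 and 13836 normalized counts, above 95.2% of expressed coding genes per kilobase. CSNK1A1, the casein kinase that primes beta-catenin for degradation, had 12367, 12739 and 12784. GSK3B, the kinase that completes the phosphorylation, had 4228, 4651 and 4319. The scaffolds of the complex were lower per kilobase: AXIN1 had 1707, 1705 and 1733 normalized counts and APC, the tumour suppressor of colon cancer, had 1356, 1439 and 1328. Per kilobase CTNNB1 exceeded GSK3B by 6.59 ± 0.467 times (SD, n = 3), AXIN1 by 8.07 ± 0.157 times and APC by 29.2 ± 1.81 times. No neighbours in the order CTNNB1, CSNK1A1, GSK3B, AXIN1, APC, AXIN2 overlapped. The lead of CTNNB1 over CSNK1A1 turned when the length of all exons replaced that of the canonical transcript, and 49.3% of the exon bases of CSNK1A1 are shared with a non-coding gene on its own strand.

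LEF1 led the TCF/LEF factors, the DNA-binding partners of beta-catenin. It had 532, 490 and 549 normalized counts and held 53.0% ± 4.18 (SD, n = 3) of the per-kilobase sum. TCF7L2 had 197, 234 and 240 normalized counts, TCF7 had 119, 179 and 130, and TCF7L1, the member best known as a repressor, had 100.3, 106 and 79.5. TCF7L2 and TCF7 overlapped per kilobase. In TCF7, replicate 2 was high and the other replicates were close together. Per kilobase CTNNB1 exceeded LEF1 by 25.5 ± 0.967 times.

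The genes that set the amount of receptor at the surface were all expressed. RNF43 and ZNRF3, E3 ligases that remove Frizzled from the membrane, had 1752, 1630 and 1556 and 1092, 1250 and 1072 normalized counts. LGR5 and LGR4, receptors of the R-spondins that block those ligases, had 519.9, 492 and 483 and 500.1, 476 and 454. Per kilobase RNF43 exceeded ZNRF3 by 2.21 ± 0.228 times and LGR5 exceeded LGR4 by 1.2 ± 0.0203 times (SD, n = 3). LGR5, a marker of gut stem cells, lay above LGR4 in each library. RNF43 shares 68.4% of its exon bases with a read-through gene whose row held identical reads, and the 2 rows were counted once.

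Genes that beta-catenin is known to induce as feedback give a further group within the members. Of 8 such genes among the members (AXIN2, NKD1, RNF43, ZNRF3, LGR5, TCF7, LEF1 and DKK1), 7 were expressed, beside 63.8% of protein-coding genes. Their levels were far apart. AXIN2, the feedback gene most used as a readout, had 140, 141 and 122 normalized counts, and only 7.90% of expressed coding genes lay lower per kilobase. AXIN1, which is not a feedback gene, exceeded it by 14.8 ± 1.35 times per kilobase (SD, n = 3). AXIN2 shares 25.3% of its exon bases with an unnamed gene on the same strand. NKD1, an inhibitor that binds Dishevelled, had 7, 1 and 3 reads. DKK1, the secreted inhibitor that binds LRP5 and LRP6, had 624, 586 and 664 normalized counts, or 346 ± 21.6 per kilobase. SFRP1, a secreted decoy for Wnt, had 1 read in replicate 2 and 0 in the others.

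The promoters of 2 feedback genes are shown, each for a different feature. RNF43 had the lowest ratio of observed to expected CG pairs of the 38, at 0.25. DKK1 was the only one of the 38 with a TCF/LEF motif. The motif was searched as CTTTGAA or CTTTGAT on both strands within 250 bases before to 50 bases after the start. It was found in 1 of the 4 feedback genes with an entry, in 6.98% of 27305 promoters and in 3.62% of those of expressed coding genes. A match is a description of the letters, and nothing was measured of binding. RNF43 is given on GRCh37 at chr17:56494957-56495145 on the minus strand, without the bases that fall inside its annotated gene and with its 4 CG pairs in capitals. DKK1 is given at chr10:54073791-54074040 on the plus strand, with the motif in capitals, starting 95 bases before the gene's start.
RNF43: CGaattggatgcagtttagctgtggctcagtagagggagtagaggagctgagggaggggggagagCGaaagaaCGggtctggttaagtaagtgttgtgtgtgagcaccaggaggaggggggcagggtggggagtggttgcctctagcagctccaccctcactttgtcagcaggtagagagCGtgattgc
DKK1: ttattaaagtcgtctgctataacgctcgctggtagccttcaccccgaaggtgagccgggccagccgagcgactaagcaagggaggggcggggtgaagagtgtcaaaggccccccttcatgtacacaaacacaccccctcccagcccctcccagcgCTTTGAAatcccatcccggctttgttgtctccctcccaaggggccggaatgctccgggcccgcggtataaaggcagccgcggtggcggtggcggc

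Other genes of the pathway were read from a second list, by role, and 53 of 77 were expressed, beside 63.8% of protein-coding genes. That share is near the background, so it is not a result about them. The counts by role, here and below, are descriptions only. WNT8B, a ligand outside the 52, had 165 ± 5.50 normalized counts (SD, n = 3) and at 77.1 per kilobase lay above WNT9A, while WNT9B had 2 reads in replicate 1 and 0 in the others. Of the R-spondins, the secreted partners of LGR4 and LGR5, RSPO4 alone was expressed of 4, at 249 ± 9.11 normalized counts, and the next, RSPO2, had 5 reads in replicate 1 and 0 in the others. Of the secreted and membrane inhibitors 3 of 12 were expressed, with TPBG the highest at 973 ± 23.8 and the Wnt-binding factor WIF1 at 162 ± 7.21. The others missed 1 CPM in at least 1 library, and some of them had reads in every library. Regulators of the destruction complex (17 of 19) and nuclear co-factors (13 of 14) were expressed nearly throughout, led per kilobase by the kinase genes GSK3A at 1659.8 ± 43.6 and CSNK1G2 at 1294 ± 62.3, and by PYGO2, which bridges beta-catenin to chromatin, at 1071 ± 34.9 and the co-repressor TLE3 at 932 ± 29.7. Of 9 genes known as targets in other tissues, 5 were expressed. CCND1, which encodes cyclin D1, averaged 25403 normalized counts per kilobase and MYC 2119.7. On the same scale SP5 averaged 11.6 ± 5.01 and ASCL2 15.2 ± 5.77 (SD, n = 3), and both missed 1 CPM in at least 1 library.

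Whether the Wnt genes varied between libraries was asked with a chi-square test that compares the recovered reads with what equal expression would give at the library sizes scaled by TMM, the trimmed mean of edgeR. P-values were adjusted by Benjamini-Hochberg over the 14646 genes that averaged 10 reads or more. By it 17 of 41 tested Wnt genes (41.5%) differed between libraries at an adjusted p under 0.05, and so did 41.9% of all tested genes. The share among Wnt genes was near the background, so it is not a result about them. Their median chi-square per degree of freedom was 2.79, and that of all tested genes was 3.02. LRP6 (adjusted p = 8.52e-09) and FZD2 (adjusted p = 6.66e-08) had the smallest values, followed by GSK3B (9.58e-06), ZNRF3 (0.000227), FZD5 (0.000837) and TCF7 (0.000877). LRP6, GSK3B, ZNRF3, FZD5 and TCF7 were highest in replicate 2, and FZD2 in replicate 1. This test assumes sampling noise alone, which separate clones or cultures usually exceed.

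Set against the spread of all genes, none of the tested Wnt genes passed. A negative binomial test with edgeR's trended dispersion called 0 of the 41 at an adjusted p under 0.05, beside 0.348% of all tested genes, with 2 under 0.05 before adjustment. These were FZD2 (unadjusted p = 0.00331, adjusted p = 0.344) and LRP6 (unadjusted p = 0.0218, adjusted p = 0.871), both from the negative binomial test. A chi-square divided by the mean spread of genes with 10 to 50 reads also called 0 of 41, beside 3.47% of all tested genes, with 4 under 0.05 before adjustment. Among expressed genes the coefficient of variation had a median of 5.33% in Wnt genes, ranging from 0.805% in DVL3 to 22.5% in TCF7, and of 4.88% over all genes. DVL3, AXIN1 and FZD1 were among the steadiest members in these libraries.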

How the data were processed

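The measurements are gene levels by RNA-seq in 22Rv1 WT cells (3 libraries). Alignment by the authors used HISAT2 on GRCh37 (hg19 in the submitters' processing notes) with GENCODE gene models, HTSeq gave the reads per gene, and DESeq2 normalized them. The HISAT2 version, the strandedness of counting and the handling of multiply mapped reads are not given in the sources used here. What was deposited is a signal for each gene: its reads over the size factor of the library, rounded to 1 decimal.

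Dividing by the step of each library gave whole reads for 100% of values above 0, to within the rounding of the deposited decimal, with size factors of 1.27, 1.18 and 1.27. Neighbouring rows with identical reads in all 3 libraries were merged, which removed 1976 of 29000 rows. Symbols, positions and canonical transcript lengths came from GENCODE lifted to GRCh37, and 86.1% of rows had a symbol. Reads were scaled by TMM in edgeR 4.0.16 (R 4.3.3), with DESeq2 1.42.0 size factors as an alternative. Tests used scipy 1.17.1, numpy 2.4.6 and pandas 2.3.3, were tested on simulated data, and cover genes averaging 10 reads or more. Exon bases shared with other genes were found from the exon positions in GENCODE. Near-identical transcripts of other genes were sought with minimap2 2.31, and figures drawn with matplotlib 3.10.9.

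All members were named or counted. Of the other pathway genes, the highest 2 per kilobase of each role were named. SP5, ASCL2, VANGL1, VANGL2 and the pairs compared as ratios were chosen with values seen. The members, lists and tests were chosen with earlier results of these data known. Chi-square values and the floors of 3 reads cover counting error only. With 1 group, no test between conditions was made. Some markers of the cell line are not reported here.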

Additional observations from a re-analysis of the deposited data

How the results depend on the processing

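The count of 34 expressed Wnt genes stayed between 34 and 38 under other scalings, thresholds of 0.5 and 2 CPM, the mean in place of every library, and leaving out each replicate. The threshold of the mean added WNT3, WNT5A and FZD2. The count of 17 that differed between libraries was 15 to 17 under other scalings and minimum reads, and 0 under both the negative binomial and the scaled chi-square test. Leaving out 1 replicate gave 7 to 13, with 7 without replicate 1, 9 without replicate 2 and 13 without replicate 3, where fewer libraries were tested.

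Shares within a group depended on length. With the length of all exons, WLS held 84.8%, FZD6 29.0%, LRP5 64.1%, DVL1 49.1%, CTNNB1 35.8% (CSNK1A1 then leading), LEF1 58.7% and RNF43 43.8%. With no length correction, WNT10B held 59.2%, WLS 81.1%, FZD6 20.3% (FZD5 leading), LRP5 51.7%, DVL1 38.8% (DVL3 leading in the mean, from replicate 2 alone), CTNNB1 40.3%, RNF43 43.8% and DKK1 99.5%. None of 156 levels recomputed under another scaling moved by more than 1 SD. Leaving out 1 replicate moved the mean by over 1.5 times in FZD2 (42.7 to 27.7 normalized counts without replicate 1) and in 6 genes with few reads: WNT3A (6.27 to 3.9 without replicate 2), WNT11 (5.53 to 3.15 without replicate 1), WNT6 (1.33 to 0.4 without replicate 1), NKD1 (2.9 to 1.6 without replicate 1), WNT1 (1.57 to 0.8 without replicate 3) and SFRP1, whose single read was in replicate 2. No paired analysis was possible because the libraries form a single group.

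Genes of under 3 reads cannot be told from absent at this depth, and 11 members were too low to test. In the annotation 22 members share exon bases with other genes, 5 of them over more than 15% (WNT2B, FZD4, AXIN2, CSNK1A1 and RNF43). The partners of WNT2B, FZD4 and RNF43 in these larger overlaps had a row in the data. Those of AXIN2 and CSNK1A1 had none. Whether the overlaps changed the deposited counts was not tested.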

Other observations

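Genes of planar polarity, the branch of Wnt signalling that acts without beta-catenin on cell orientation, were split: 6 of 8 were expressed. CELSR3, an adhesion receptor of this branch, was the highest at 625 ± 18.0 normalized counts per kilobase (SD, n = 3), followed by DAAM1, a formin that links Dishevelled to actin, at 325 ± 16.3. VANGL2, a core gene of the branch, had 1 read in replicate 3 and 0 in the others, while its relative VANGL1 averaged 197 ± 4.08 normalized counts per kilobase.

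All 3 catenins and cadherin partners read were expressed. CTNNA1, which binds beta-catenin at cell junctions, averaged 3794 ± 75.8 normalized counts per kilobase, beside 3736 ± 83.4 for CTNNB1. JUP, the close relative of beta-catenin, averaged 1591 ± 52.9. Other receptors were expressed for 4 of 5 genes, led by KREMEN2, a receptor of DKK proteins, at 951 ± 22.9 and RYK at 654 ± 19.3.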
